A study of Mus musculus with 16 samples.

Results

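The 8 arrays described here measured RNA of conventional CD4+ T cells (Tconv) from the spleens of NOD mice (4 arrays) and of B6 mice (4 arrays). They were chosen by cell type and genetic background from the 16 arrays of a study that also sorted regulatory T cells (Treg), and the comparison was NOD minus B6 over all genes. All mice were male and 6 weeks old, and all carried a GFP reporter in Foxp3, the gene of the transcription factor that defines Treg, so no group had an unmodified Foxp3 allele. In the Foxp3-GFP line, called fusion below, GFP is part of the Foxp3 protein, and in the Foxp3-IRES-GFP line, called ires, it is translated separately from the same transcript. Each background was represented by 2 arrays of each allele, which gave the groups NOD fusion, NOD ires, B6 fusion and B6 ires. Tconv were the CD3+ CD4+ cells without GFP, sorted on a MoFlo instrument. This gate can hold naive, activated and memory cells together. The labels do not say how far either allele was crossed into each background. Nor do they say whether the arrays numbered 1 and 2 came from separate mice or pools, so the p-values cover only the spread between the arrays at hand, and that spread may be technical.

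NOD mice develop autoimmune diabetes spontaneously and B6 mice do not. Conventional CD4+ T cells recognise peptides on MHC class II through the T cell receptor, and in NOD mice they take part in the attack on the insulin-producing cells of the pancreas. Susceptibility in the NOD strain maps to many chromosomal regions, called Idd, of which the MHC is the strongest. The strains differ in sequence at many genes, so a gene can differ in level through its own alleles or through the state of the cells.

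The sorted cells carried the markers of CD4+ T cells. All 11 measured CD4+ T cell markers lay above the level set for testing, log2 6.04, and their intensities summed to between 30809.6 and 31990.3 on the NOD arrays and between 28283 and 30175 on the B6 arrays. Of the B cell and plasma cell markers 12 of 16 lay below that level, among them Cd79a, Ms4a1 and Pax5, as did 8 of 14 myeloid markers, among them Lyz2, Csf1r and Cd14, and 17 of 19 killer lectin-like receptors. The other 4 B cell and 6 myeloid markers passed it. So did 9 of 16 markers of cytotoxic and innate-like T cells and NK cells. Of dendritic cell and MHC class II markers 7 of 13 passed it, and of red cell and platelet markers 4 of 8. Foxp3 (probe set 10598292), which should be low in cells without GFP, was at 7.12, 8.18, 7.57 and 7.68 on the NOD arrays and at 7.09, 7.06, 7.40 and 7.01 on the B6 arrays, on the log2 scale used for every level below. Here and below the arrays of each background are given in the order fusion 1, fusion 2, ires 1 and ires 2. The groups overlapped, since NOD fusion 1 lay among the B6 arrays, and the difference of 0.50 ± 0.17 did not pass the test (adjusted p = 0.0636). It passed without NOD fusion 1, with the arrays centred on their medians, with array weights and with all 16 arrays in the fit. On the Treg arrays Foxp3 lay between 11.47 and 12.16 in NOD and between 11.37 and 11.79 in B6. In sorted bulk cells a lower value from fewer cells of a type and one from less RNA per cell cannot be told apart.

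Most NOD arrays spread over a wider range of intensity than the B6 arrays. The exception was NOD ires 2, with quartiles of 40.2 and 299, against 39.7 and 301 on B6 ires 2. The median intensity of the NOD arrays lay between 86.7 and 91.9 and their upper quartile between 299 and 314, against 91.5 to 97.1 and 278 to 301 on the B6 arrays. The median difference between NOD and B6 also moved with the level of the gene. With the genes split by mean level into 4 equal parts, it was -0.14, 0.04, 0.12 and 0.08 from dim to bright. After quantile normalization these medians were -0.05, 0.01, 0.03 and 0.05. The part of this spread in single small differences was not tested.

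Differences between the backgrounds were widespread and mostly small. Of 11923 genes tested, 2162 (18.1%) were called at an adjusted p under 0.05, of which 1330 (11.2%) were higher and 832 (6.98%) lower in NOD. The median size of a called difference was 0.36 on the log2 scale, on which 1 stands for a 2-fold ratio, and the median over all genes tested was 0.04. At 2-fold or more by the fitted difference 39 genes were higher and 41 lower, of which 8 and 7 had every array of the lower background below the level set for testing, and at 4-fold or more 6 were higher and 7 lower. Every one of the 2162 called genes had the same sign in the fusion and the ires arrays. The calling itself favours this, since the fitted difference averages the alleles and their disagreement counts as spread. For 1166 of the higher and 704 of the lower genes the NOD and B6 arrays did not overlap. Over all genes tested, the 4 NOD arrays lay wholly above the B6 arrays for 16.6% and wholly below for 8.72%.

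The split into higher and lower calls depended on how the arrays were scaled. With each array centred on its median 2236 genes were higher and 406 lower, and after quantile normalization 1006 were higher and 753 lower, so that the higher genes made up 61.5% of the calls as deposited, 84.6% after centring and 57.2% after quantile normalization. The median over all genes was 0.12 after centring and 0.01 after quantile normalization. Called the same way under all 3 scalings were 891 higher and 375 lower genes. The number of calls also rested on single arrays, with 919 genes called without NOD ires 1, 1002 without B6 fusion 1, 1035 without NOD fusion 2 and 1120 without B6 ires 1. Whichever array was left out, 486 genes remained called as higher and 275 as lower, and 79 of the 80 genes that differed 2-fold or more were among those called each time.

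**Figure D1:**
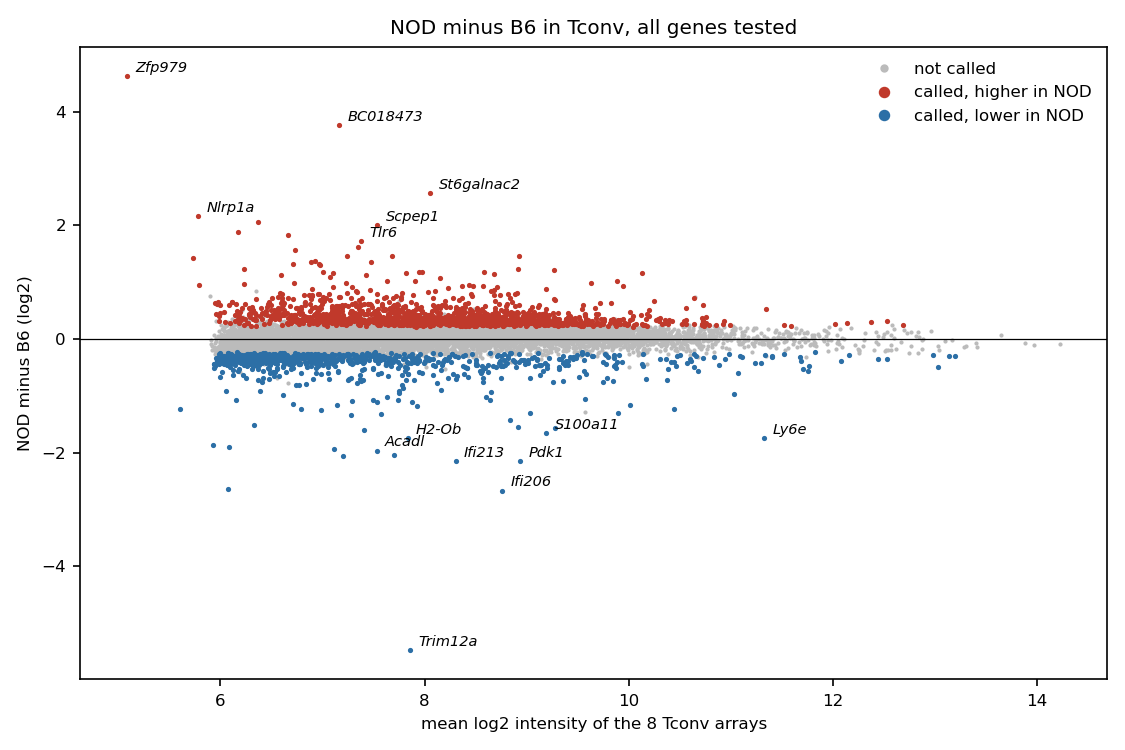
NOD minus B6 in Tconv (log2, y axis) against the mean log2 intensity of the 8 Tconv arrays (x axis), 1 point per gene tested, with called genes coloured by direction. The 2162 called genes lie mostly within 1 of zero, and Trim12a, fitted at -5.48, and Zfp979, fitted at 4.64, lie farthest out.

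Among the genes with the largest fitted rise in NOD Tconv were a zinc finger gene, sialyltransferases, innate sensors and membrane proteins. The highest fitted difference was that of Zfp979 (probe set 10518358), a zinc finger gene, at 7.89, 7.91, 7.0 and 6.82 on the NOD arrays and at 2.66, 2.86, 2.79 and 2.76 on the B6 arrays. The B6 arrays were all below the level set for testing, so the gene was tested through its NOD arrays alone. The fitted difference was 4.64 ± 0.16 (adjusted p = 3.42e-09), and against that level it was at least 1.36. BC018473 (probe set 10382846) was at 8.96, 9.35, 8.79 and 9.07 in NOD and at 5.26, 5.42, 5.27 and 5.17 in B6, a fitted difference of 3.77 ± 0.10 (adjusted p = 3.93e-10) that was at least 3.0 against the level for testing, since B6 lay below it. Its neighbours on the chromosome, St6galnac2 and St6galnac1, encode enzymes that add sialic acid to the sugar chains of glycoproteins. St6galnac2 was at 9.12, 9.85, 9.23 and 9.14 in NOD and at 6.90, 6.55, 6.84 and 6.80 in B6 (2.57 ± 0.14), and St6galnac1 differed by 1.46 ± 0.12. All NOD arrays were high for these genes and all B6 arrays low, without overlap.

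Nlrp1a, a sensor that assembles inflammasomes, was at 6.77, 7.13, 6.79 and 6.76 on the NOD arrays and at 4.80, 4.89, 4.63 and 4.48 on the B6 arrays (2.16 ± 0.09, adjusted p = 1.64e-08), a fitted difference of at least 0.82 against the level for testing, with B6 below it. Tlr6, a receptor for bacterial lipopeptides, was even across NOD, at 8.30, 8.21, 8.22 and 8.23, and lower in B6, at 6.55, 6.51, 6.23 and 6.79 (1.72 ± 0.11). H60b, a ligand of the activating receptor NKG2D, differed by 1.62 ± 0.12, from 7.92 to 8.67 in NOD and 6.34 to 6.64 in B6. Crtam, a surface protein of activated T cells, was at 8.35, 8.30, 8.45 and 8.55 in NOD and at 6.94, 7.06, 6.96 and 6.84 in B6 (1.46 ± 0.08). The remaining genes of the 15 highest came from several families. They were Scpep1, a serine carboxypeptidase (2.01 ± 0.11), Prelid2 (2.07 ± 0.10), the calcium-dependent membrane-binding copine Cpne4 (1.89 ± 0.10), the cyclic nucleotide-gated channel Cnga1 (1.83 ± 0.08), the alcohol dehydrogenase Adh1 (1.47 ± 0.08), the actin-binding Ccdc88a (1.42 ± 0.09) and the phosphatase and actin regulator Phactr2 (1.38 ± 0.11). None of the 15 overlapped between the backgrounds, which the naming rule required, and each was called whichever array was left out. For 7 of the 15 every B6 array lay below the level set for testing, where signal may be background, so the sizes and order of their fitted differences are uncertain. Besides the 3 given above these were Prelid2, Cpne4, Cnga1 and Ccdc88a, with bounds of 1.36, 1.08, 1.54 and 0.40.

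Genes most lowered in NOD Tconv included members of the TRIM and Ifi200 families, metabolic enzymes and transporters. Trim12a (probe set 10566326), of the TRIM family that includes antiviral restriction factors, was at 5.53, 4.63, 5.30 and 5.0 on the NOD arrays and at 10.87, 10.55, 10.32 and 10.65 on the B6 arrays. All NOD arrays lay below the level set for testing, so the gene was tested through its B6 arrays alone. The fitted difference was -5.48 ± 0.17 (adjusted p = 1.06e-09), and against that level it was -4.56 or lower. Pdk1, a kinase that restrains the entry of pyruvate into mitochondrial oxidation, was at 7.91, 8.02, 7.84 and 7.67 in NOD and at 9.92, 10.13, 10.05 and 9.97 in B6 (-2.16 ± 0.09, adjusted p = 9.75e-09). Acadl, the long-chain acyl-CoA dehydrogenase of mitochondrial fatty acid oxidation, was at 6.48, 6.58, 6.87 and 6.26 in NOD and at 8.44, 8.49, 8.39 and 8.73 in B6 (-1.96 ± 0.12). For both enzymes each NOD array was more than 2-fold below the lowest B6 array.

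Ly6e, a membrane-anchored protein of the Ly6 family, was at 10.32, 10.48, 10.43 and 10.56 on the NOD arrays and at 12.37, 12.22, 12.01 and 12.20 on the B6 arrays (-1.75 ± 0.09). It was the only called gene among 5 tested Ly6 genes. That is 20% lower and 0% higher in a short list, against 6.98% and 11.2% of all genes. The median difference of these 5 was -0.07 as deposited and 0.01 after centring or quantile normalization. S100a11, a calcium-binding protein, differed by -1.65 ± 0.10, and a second probe set of that gene differed by -1.63. Apobec3, a cytidine deaminase that restricts retroviruses, was at 8.08, 8.19, 8.11 and 8.17 in NOD and at 9.90, 9.83, 9.41 and 9.61 in B6 (-1.55 ± 0.09), and its second probe set differed by -0.92. H2-Ob, a chain of the H2-O protein that tunes peptide loading of MHC class II, was at 7.08, 7.25, 6.61 and 6.92 in NOD and at 8.78, 8.78, 8.60 and 8.65 in B6 (-1.74 ± 0.09). The NOD and B6 arrays were apart for each of these genes.

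Transport genes in the same set were the peptide transporter Slc15a2 (-1.90 ± 0.19), the drug exporter Abcb1b (-1.87 ± 0.11) and the nucleoside transporter Slc28a2b (-1.57 ± 0.09). Carboxypeptidase M, Cpm, differed by -2.03 ± 0.16, AI506816 by -1.94 ± 0.15, and Pttg1, the securin that keeps sister chromatids from separating before anaphase, by -1.61 ± 0.12. For Abcb1b the NOD arrays, at 4.68 to 5.17, were all below the level set for testing, and the B6 arrays lay between 6.77 and 7.03. Every NOD array of Slc15a2 lay below that level too, and the fitted sizes of these genes are uncertain likewise. Against that level the difference was -0.82 or lower for Abcb1b and -0.99 or lower for Slc15a2. Sequence differences between the strains under the array's probes were not examined, and a probe that matches 1 strain better would give a difference of the same kind.

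**Figure D2:**
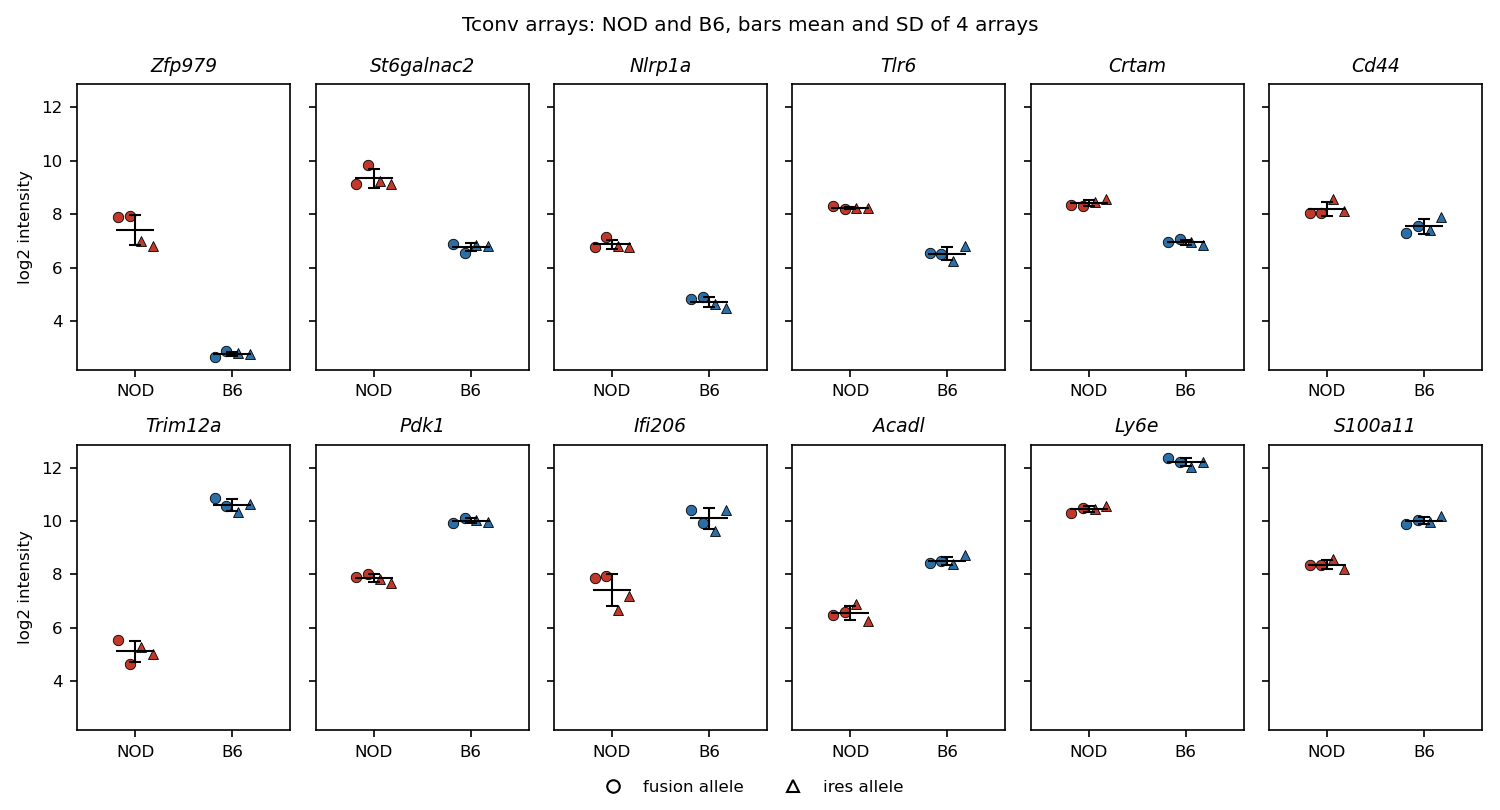
Log2 intensity (y axis) on the 4 NOD arrays (left) and the 4 B6 arrays (right) for genes with large called differences and for Cd44, 1 point per array, with bars for the mean and SD of 4 arrays and symbols for the reporter allele. In every panel the NOD and B6 points are apart, with the widest fitted gaps for Trim12a (-5.48) and Zfp979 (4.64), each tested through 1 background alone.

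The interferon-inducible Ifi200 genes lie side by side on 1 chromosome and moved in both directions. Ifi206 was at 7.87, 7.94, 6.67 and 7.21 on the NOD arrays and at 10.40, 9.93, 9.63 and 10.41 on the B6 arrays (-2.67 ± 0.20). Ifi213 was at 7.41, 7.27, 7.45 and 6.79 in NOD and at 10.03, 9.17, 8.74 and 9.58 in B6 (-2.16 ± 0.21), and Ifi209 differed by -1.17 ± 0.11, with 9.21 to 9.65 in NOD and 10.25 to 10.78 in B6. Their neighbours Ifi208 (-1.30 ± 0.13) and Ifi214 (-1.02 ± 0.14) were lower in NOD as well. Aim2, a member that senses DNA in the cytosol, went the other way, at 8.07, 8.29, 8.02 and 7.61 in NOD and at 7.13, 7.22, 7.12 and 7.55 in B6 (0.74 ± 0.14, adjusted p = 0.00386). Its highest B6 array, ires 2, lay just below its lowest NOD array, ires 2. Ifi203 was 0.33 ± 0.09 higher, with overlapping arrays, and lost its call without any of 6 arrays (adjusted p up to 0.104). These genes are similar in sequence and may share probe signal, so their separate values are uncertain.

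A list of 32 Ifi200 genes and other innate sensors had 18 members tested, of which 6 were higher (33.3%) and 2 lower (11.1%) in NOD, against 11.2% and 6.98% of all genes, with a median of 0.17 against 0.04 over all genes. Ifi206, Ifi208, Ifi213 and Ifi214 were not on this list. The 6 were Nlrp1a, Tlr6, Aim2, Ifi203, Tlr1 and Pycard. Tlr1, a partner of Tlr2, differed by 0.68 ± 0.11 and Pycard, the adaptor of inflammasomes, by 0.27 ± 0.08. Nlrp1a, Tlr6, Aim2 and Tlr1 stayed called with any single array removed, and Pycard lost its call without any of 7 arrays (adjusted p up to 0.140). Lower were Ifi209 and Nlrc5, a transactivator of MHC class I genes, at 11.11, 11.33, 10.87 and 10.77 in NOD and 11.67, 11.36, 11.46 and 11.28 in B6 (-0.42 ± 0.10, adjusted p = 0.0142). Nlrp3, Nlrc4, Tlr3 and Tlr4 were among the members below the level set for testing.

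Among the listed interferon response genes those called were lower in NOD, and most did not pass the test. Of 41 listed genes 30 were tested, 0 were higher and 5 lower (16.7%, against 6.98% of all genes), Oas1a, Oas2, Oas3, Oasl1 and Usp18, and the median of the list was -0.26, against 0.04 over all genes. Oas genes encode enzymes of the response to double-stranded RNA, and Usp18 removes the ubiquitin-like ISG15 and dampens interferon signalling. Oas1c, a neighbour of Oas2 and Oas3 that was not on the list, was called as higher in NOD (0.27). Oasl1 was at 7.25, 7.20, 7.27 and 7.21 on the NOD arrays and at 8.22, 7.55, 7.82 and 7.81 on the B6 arrays (-0.61 ± 0.12, adjusted p = 0.00514), and was the only one of the 5 that kept its call whichever array was left out. Oas3 was at 7.57, 7.61, 7.17 and 7.51 in NOD and at 8.65, 7.80, 7.85 and 8.09 in B6 (-0.63 ± 0.15, adjusted p = 0.0155), and its adjusted p was 0.0525 without NOD ires 1. Oas2 overlapped, at 7.65, 7.88, 6.68 and 7.30 in NOD and at 9.16, 7.69, 7.80 and 8.08 in B6 (-0.81 ± 0.24, adjusted p = 0.0395). B6 fusion 1 was the highest of the 8 arrays for Oasl1, Oas3, Oas2 and Usp18. With an array left out the number of list members called as lower ran between 1 and 13. Oas1a (-0.42 ± 0.14), Oas2 and Usp18 (-0.68 ± 0.20) each lost the call without any of 6 arrays, with adjusted p up to 0.139, 0.121 and 0.110.

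Interferon-inducible promoters often carry the element bound by the ISGF3 factor, which was looked for here by the letters GAAANNGAAA alone. The promoters of Oas3 and Oas1a are shown because both genes were called as lower and both hold these letters. The windows are the 250 bases before the RefSeq transcription start on assembly GRCm38.p6, both on the minus strand of chromosome 5, written 5′ to 3′ along the gene, with matches to GAAANNGAAA in capitals. Oas3 spans chr5:120777660-120777909, with 1 match that begins 75 bases before the start. Oas1a spans chr5:120907526-120907775, with 2 overlapping matches, 20 and 14 bases before it.
Oas3: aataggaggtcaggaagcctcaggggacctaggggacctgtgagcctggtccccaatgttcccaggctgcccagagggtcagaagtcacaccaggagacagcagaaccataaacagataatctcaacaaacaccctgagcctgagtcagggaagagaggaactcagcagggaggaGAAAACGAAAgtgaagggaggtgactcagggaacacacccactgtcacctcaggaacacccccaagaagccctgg
Oas1a: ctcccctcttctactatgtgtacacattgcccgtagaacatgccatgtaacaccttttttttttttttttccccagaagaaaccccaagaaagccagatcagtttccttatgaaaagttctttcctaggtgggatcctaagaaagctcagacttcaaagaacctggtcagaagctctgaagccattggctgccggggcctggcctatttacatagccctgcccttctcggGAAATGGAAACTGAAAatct
Searched on both strands, the letters GAAANNGAAA occurred in the windows of 299 of 9602 tested genes with an entry (3.11%) and of 11 of 21 interferon list members (52.4%). Among the called genes they occurred in 32 of 1085 higher in NOD (2.95%) and 33 of 658 lower in NOD (5.02%). A match describes the reference sequence and not binding, and the window of Oasl1 held no match.

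Class I antigen presentation and peptide loading genes had 6 members lower and 1 higher in NOD of 18 tested (33.3% and 5.56%, against 6.98% and 11.2% over all genes). The class I molecule presents peptides to CD8+ T cells and is built from an H2 heavy chain and B2m, loaded by the transporter Tap1. H2-Q5 was at 8.80, 9.13, 6.83 and 7.76 on the NOD arrays and at 9.45, 9.61, 9.54 and 9.63 on the B6 arrays (-1.43 ± 0.29, adjusted p = 0.00719). H2-Q4 was at 10.91, 11.08, 7.87 and 9.45 in NOD and at 11.16, 11.07, 11.07 and 10.94 in B6 (-1.23 ± 0.39, adjusted p = 0.0470). For both genes the NOD ires arrays were the lowest, ires 1 below ires 2, and the NOD fusion arrays lay closer to the B6 arrays, overlapping them for H2-Q4. H2-Q4 fell by 0.69 without NOD ires 1 and was then not called, as also without NOD fusion 1 or either B6 ires array (adjusted p up to 0.156), and with quantile normalization and 5 other alternatives. B2m was at 13.12, 13.10, 12.14 and 12.77 in NOD and at 13.36, 13.30, 13.16 and 13.29 in B6 (-0.49 ± 0.14, adjusted p = 0.0304), with NOD ires 1 again the lowest, and was not called without that array or either B6 ires array (adjusted p up to 0.0893), nor with quantile normalization, trend and robust variances or no allele block (up to 0.105).

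The other lower genes were H2-T24 (-0.57 ± 0.13), Tap1 (-0.44 ± 0.13) and Psmb9 (-0.40 ± 0.12), a subunit of the immunoproteasome, and the higher one was the chaperone Calr (0.26 ± 0.08). The list's median was -0.16. H2-T24 differed by -0.56 in fusion and -0.57 in ires. For Tap1 the NOD ires arrays were again the lowest, at 10.25, 10.40, 9.35 and 9.64 in NOD and at 10.46, 10.33, 10.26 and 10.33 in B6. Without NOD ires 1 the adjusted p was 0.0541 for H2-T24, 0.133 for Tap1, 0.116 for Psmb9 and 0.107 for Calr, and the last 3 also lost the call without other single arrays, 6, 4 and 6 arrays in all. H2-Q5 was the only one of the 7 called whichever array was left out, and it was not called with trend and robust variances (adjusted p = 0.0771). The heavy chain genes of the H2-Q and H2-T clusters are similar in sequence and vary between MHC haplotypes, so their separate values are uncertain.

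A few genes of the T cell receptor and its signalling were called, most of them higher in NOD. Cd3e, a signalling chain of the receptor, was at 11.58, 11.57, 11.65 and 11.65 on the NOD arrays and at 11.06, 11.13, 11.08 and 11.03 on the B6 arrays, with a difference of 0.54 ± 0.07 (adjusted p = 0.000426) and no overlap. Malt1, a protease that links the receptor to NF-kappaB, was at 10.33, 10.43, 10.35 and 10.22 in NOD and at 9.94, 10.03, 9.72 and 9.95 in B6 (0.42 ± 0.08). Ubash3a, a phosphatase that damps receptor signalling, was lower, at 9.22 to 9.41 in NOD and 9.61 to 9.71 in B6 (-0.33 ± 0.07, adjusted p = 0.00999), and had an adjusted p of 0.0580 with the arrays centred. Of 36 receptor signalling genes tested 7 were higher (19.4%) and 1 lower (2.78%), against 11.2% and 6.98% of all genes, with a median of 0.05, against 0.04 over all genes, and only Cd3e, Malt1 and Ubash3a were called whichever array was left out. Cd4 (0.25 ± 0.08, adjusted p = 0.0385), Cd3g (0.24 ± 0.07) and Vav3 (0.36 ± 0.11) were not called without 6, 8 and 6 of the arrays, each left out in turn (adjusted p up to 0.123, 0.110 and 0.114). The kinase Zap70 and the adaptor Lat, chosen after their values were seen, were not called, at 0.05 ± 0.07 and -0.08 ± 0.08.

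More markers of activated and memory cells were called as higher in NOD than as lower. Cd44, the adhesion receptor that marks antigen-experienced cells, was at 8.04, 8.04, 8.57 and 8.10 on the NOD arrays and at 7.28, 7.57, 7.40 and 7.90 on the B6 arrays (0.65 ± 0.13, adjusted p = 0.00519). The inhibitory receptor Pdcd1, which encodes PD-1, was at 8.66, 8.46, 8.31 and 8.33 in NOD and at 7.65, 7.72, 7.23 and 7.88 in B6 (0.82 ± 0.12, adjusted p = 0.000816). Neither gene overlapped between the backgrounds, and B6 ires 2 was the highest B6 array for both. Lag3, another inhibitory receptor, differed by 0.53 ± 0.10 and Tnfrsf4, the costimulatory receptor OX40, by 0.55 ± 0.12. Of 40 tested genes of this list 12 were higher (30.0%) and 2 lower (5.0%), against 11.2% and 6.98% of all genes, with a median of 0.08, and the 4 named here, with S100a11 and the transcriptional cofactor Hopx on the lower side, were called whichever array was left out. Id2 (0.59 ± 0.15), a regulator of effector cells, overlapped and was not called without B6 fusion 1, B6 ires 1 or NOD ires 1 (adjusted p up to 0.0609). Hopx was at 6.35, 5.99, 6.08 and 6.15 in NOD and at 6.48, 6.73, 6.52 and 7.06 in B6 (-0.56 ± 0.13, adjusted p = 0.0123), and had an adjusted p of 0.0515 with quantile normalization.

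Genes of naive and central T cells had 2 higher (9.52%) and 4 lower (19.0%) among 21 tested, against 11.2% and 6.98% of all genes, with a median of 0.11. Actn1, an actin crosslinker, was at 9.85, 10.05, 10.02 and 10.14 on the NOD arrays and at 10.73, 10.74, 10.78 and 10.71 on the B6 arrays (-0.73 ± 0.08, adjusted p = 7.39e-05), and Nsg2 differed by -0.48 ± 0.08. The transcriptional inhibitor Id3 was lower by -0.36 ± 0.08. Actn1, Nsg2 and Id3 stayed called with any single array removed, and Dapl1 (-0.46 ± 0.12) and Ccr9 (0.61 ± 0.14) were not, with adjusted p up to 0.0749 for Dapl1 without NOD ires 1 or B6 ires 1 and of 0.0519 for Ccr9 without B6 ires 1. After quantile normalization 8 members were called as higher and 4 as lower, and after centring 6 and 3. The central naive regulators did not pass the test, with Lef1 at 0.21 ± 0.08 (adjusted p = 0.0845) and Ccr7 at 0.17 ± 0.07 (adjusted p = 0.107). For both of them all NOD arrays lay above all B6 arrays.

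Several genes that Treg express at high level were higher in NOD Tconv. Tnfrsf18, the receptor GITR, was at 9.20, 9.29, 9.24 and 9.08 on the NOD arrays and at 8.31, 8.50, 8.43 and 8.64 on the B6 arrays (0.73 ± 0.09, adjusted p = 0.000203). Ikzf2, the transcription factor Helios, was at 7.66, 8.17, 7.68 and 7.34 in NOD and at 7.29, 7.11, 6.71 and 7.29 in B6 (0.61 ± 0.14), and had an adjusted p of 0.0540 without B6 ires 1. Nrp1 differed by 0.48 ± 0.15 (adjusted p = 0.0494), overlapped, and lost the call without any of 6 arrays. Tnfrsf9, the receptor 4-1BB, was lower, at 7.26 to 7.59 in NOD and 7.79 to 7.86 in B6 (-0.42 ± 0.09). Of 11 Treg markers tested 3 were higher (27.3%) and 1 lower (9.09%), against 11.2% and 6.98% of all genes, with a median of 0.08, and the intensities of the 12 measured markers summed to between 2388 and 2931 on the NOD arrays and between 2032 and 2224 on the B6 arrays, without overlap. The part of Treg among the sorted cells in these differences, or in those of Pdcd1, Tnfrsf4 and Irf4, was not tested. Ctla4, another Treg gene, did not pass the test, at 7.37, 7.71, 7.10 and 6.68 in NOD and at 7.13, 7.73, 6.97 and 7.85 in B6 (-0.20 ± 0.20, adjusted p = 0.483). Il2ra was not tested, with means of 6.35 in NOD and 5.5 in B6, and neither was Il2, at 4.96 and 5.04.

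Of 20 helper cytokine and lineage genes tested 1 was higher (5.0%) and 0 lower, against 11.2% and 6.98% of all genes. The higher one was Irf4, a transcription factor of activated cells, at 6.66, 6.74, 6.90 and 6.82 on the NOD arrays and at 6.06, 6.28, 6.15 and 6.62 on the B6 arrays (0.51 ± 0.10, adjusted p = 0.00664). Gata3, the regulator of type 2 helper cells, differed by 0.28 ± 0.09 (adjusted p = 0.0565) and Tbx21, that of type 1 cells, by -0.09 ± 0.13. The cytokine genes Il4, Il5, Il10 and Il21 were below the level set for testing. Among chemokine receptors and trafficking genes 6 of 22 were higher (27.3%) and 1 lower (4.55%), against 11.2% and 6.98% of all genes, with a median of 0.07. Gpr183, an oxysterol receptor that guides cells within lymphoid tissue, was the lower one, at 9.47, 9.52, 9.54 and 9.24 in NOD and at 10.10, 10.16, 10.07 and 10.17 in B6 (-0.69 ± 0.08, adjusted p = 0.00021). Cxcr4 was 0.71 ± 0.21 higher (adjusted p = 0.0345), but its lowest NOD array, at 10.59, was close to its highest B6 array, at 10.58, and it lost the call without any of 5 arrays (adjusted p up to 0.118). Cd44, Gpr183 and the integrin Itga6 (0.44) were the members called whichever array was left out.

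As deposited, the called proliferation and early response genes were lower in NOD, with 1 exception. Of 28 cell cycle genes tested 8 were lower (28.6%) and 1 higher (3.57%), against 6.98% and 11.2% of all genes, with a median of -0.17. Bub1b, a kinase of the spindle checkpoint, was at 5.56, 5.47, 5.61 and 6.04 on the NOD arrays and at 6.17, 6.48, 6.32 and 6.35 on the B6 arrays (-0.66 ± 0.11, adjusted p = 0.00206), and against the level set for testing, which no NOD array exceeded, the difference was -0.29 or lower. It was the only lower member called whichever array was left out, and with an array left out the number called as lower ran between 1 and 10. After quantile normalization 3 were lower and 1 higher, and after centring 5 and 3. Top2a (-0.58 ± 0.18), Ccna2 (-0.42 ± 0.12) and Aurkb (-0.52 ± 0.15) overlapped and had adjusted p up to 0.123, 0.106 and 0.102. The exception was Mcm3, of the replicative helicase, which was 0.40 ± 0.08 higher. Immediate-early and stress genes, which handling of cells can induce, had 0 higher and 6 lower (22.2%) of 27, against 11.2% and 6.98% of all genes, with a median of -0.17. After centring 2 were higher and 5 lower, with a median of -0.07, and with an array left out 3 to 8 were lower. Dusp5, a phosphatase induced by signalling, was at 7.79, 7.84, 7.85 and 7.99 in NOD and at 8.32, 8.51, 8.30 and 8.23 in B6 (-0.48 ± 0.09), and Junb differed by -0.40 ± 0.08, both called whichever array was left out. Nr4a1, an early gene of receptor signalling, differed by -0.48 ± 0.11 (adjusted p = 0.0160) and overlapped through NOD ires 2, and was not called without B6 fusion 1 or NOD ires 1 (adjusted p up to 0.0526).

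Cell death genes had 1 higher (4.35%) and 1 lower (4.35%) of 23 tested, below the 11.2% and 6.98% of all genes. The lower one, Bmf, a proapoptotic member of the Bcl-2 family, was at 6.69, 6.72, 6.53 and 6.60 on the NOD arrays and at 7.19, 7.19, 7.35 and 7.22 on the B6 arrays (-0.61 ± 0.08, adjusted p = 0.000336), and the higher one, Pmaip1, which encodes Noxa, differed by 0.35 ± 0.09 and was not called without B6 fusion 1 or NOD fusion 2 (adjusted p up to 0.0724). Of 27 glutathione and redox genes 4 were higher (14.8%) and 3 lower (11.1%), where 11.2% and 6.98% of all genes were, against 6 and 0 after centring and 1 and 5 after quantile normalization, and none kept its call with every array removed in turn. Among them Nnt, the mitochondrial transhydrogenase that is defective in some B6 lines, was at 8.46, 8.69, 8.64 and 8.43 in NOD and at 8.30, 8.48, 7.69 and 7.90 in B6 (0.46 ± 0.12, adjusted p = 0.0209). The B6 ires arrays were the lowest and the B6 fusion arrays lay close to the NOD arrays, with a NOD minus B6 difference of 0.19 in fusion and 0.74 in ires, and the call was lost without NOD fusion 2, B6 ires 1 or NOD ires 1 (adjusted p up to 0.0740) and with quantile normalization (0.0546). Outside that list Glrx, a glutaredoxin, was higher without overlap, at 8.79, 8.64, 9.03 and 8.96 in NOD and at 7.89, 8.02, 7.96 and 8.35 in B6 (0.80 ± 0.09).

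Candidate genes of the diabetes susceptibility regions had 3 higher (15.8%) and 6 lower (31.6%) of 19 tested, against 11.2% and 6.98% of all genes, with a median of -0.11. Lower were Acadl, B2m, Tnfrsf9, the inhibitory surface protein Cd101, at 6.22 to 6.43 in NOD and 6.67 to 6.96 in B6 (-0.43 ± 0.08), Sirpa (-0.35 ± 0.09), which lost its call without any of 5 arrays (adjusted p up to 0.0900), and the complement regulator Cd55. Higher were Slamf1, a receptor of the SLAM family, at 7.84, 8.14, 8.18 and 7.94 in NOD and at 7.55, 7.60, 7.42 and 7.65 in B6 (0.47 ± 0.09), Notch2 (0.43 ± 0.09) and Vav3. Acadl, Cd101, Tnfrsf9, Slamf1 and Notch2 kept their calls whichever array was left out. Ptpn22, a phosphatase of T cell receptor signalling, was at 9.44, 9.46, 9.51 and 9.41 on the NOD arrays and at 9.52, 9.75, 9.53 and 9.87 on the B6 arrays, all NOD arrays below all B6 arrays, but the difference of -0.22 ± 0.09 did not pass the test (adjusted p = 0.108), and passed with quantile normalization (-0.28, adjusted p = 0.0254). The SLAM family list had a median of 0.04 over 8 tested genes, with 1 higher (12.5%) and 2 lower (25%), against 11.2% and 6.98% of all genes. The lower ones were Cd48 (-0.31 ± 0.10) and the adaptor Sh2d2a (-0.29 ± 0.09). Both lost the call with the arrays centred (adjusted p = 0.145 and 0.137) and without any of 6 and 5 arrays in turn.

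**Figure D3:**
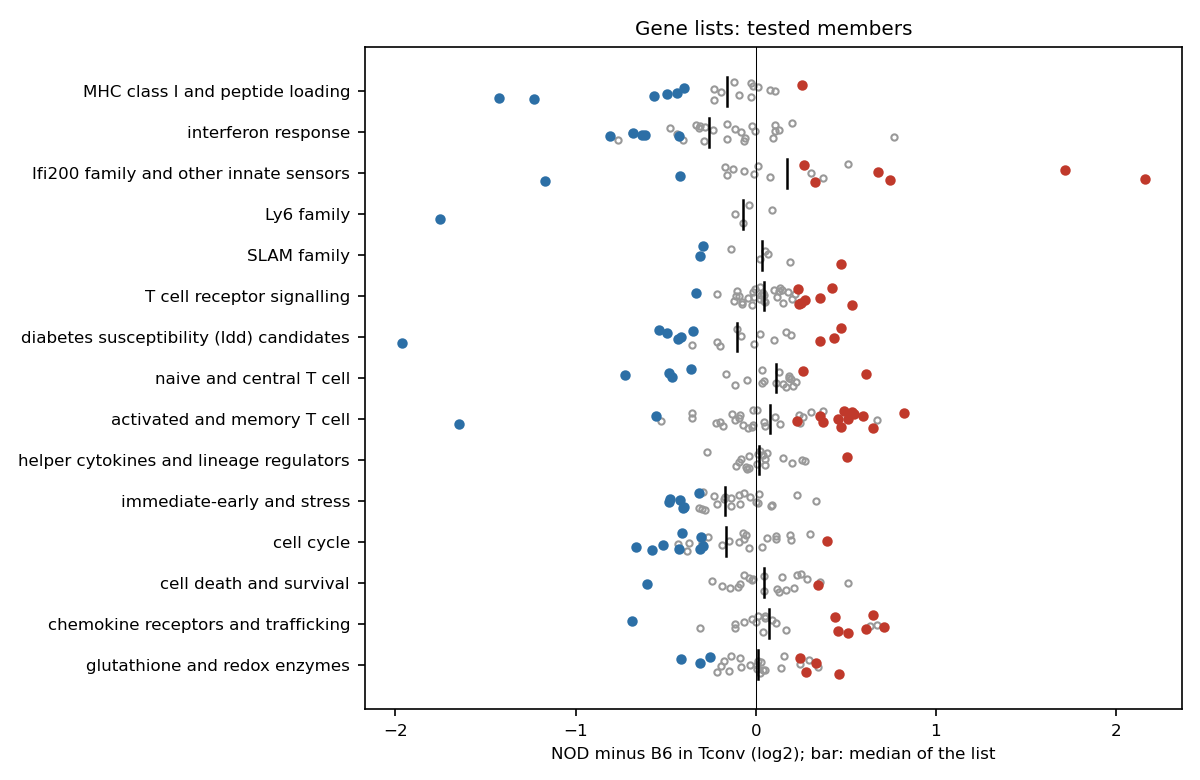
NOD minus B6 in Tconv (log2, x axis) for the tested members of each gene list (rows), 1 point per gene, filled where called, with a vertical bar at the list's median. The list medians lie between -0.26 and 0.17 and in each list most genes were not called.

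Markers of other cell types differed for few genes. Of 6 myeloid markers tested 2 were higher (33.3%) and 0 lower, against 11.2% and 6.98% of all genes. The higher ones were Cybb, a subunit of the phagocyte oxidase (0.88 ± 0.17, adjusted p = 0.00439), and Itgam (0.38 ± 0.12, adjusted p = 0.0426), which was not called without any of 6 arrays. The summed intensity of the 14 measured myeloid markers was between 2141 and 2699.9 in NOD and between 2490.4 and 2829.7 in B6. Among 4 tested B cell markers none was called, and the sums were 1146 to 1592 in NOD and 1134 to 1278 in B6. Dendritic cell and MHC class II markers had 0 higher and 2 lower (28.6%) of 7, H2-Ob and H2-DMa (-0.44 ± 0.09). Cd74, which encodes the invariant chain that escorts class II molecules, was at 8.27, 6.25, 6.46 and 6.10 in NOD and at 5.81, 6.13, 5.82 and 5.97 in B6 (0.84 ± 0.33, adjusted p = 0.0873). NOD fusion 1 stood apart for Cd74, without which the difference was 0.35, and that array was also the highest of the 8 arrays for H2-Ab1 at 7.21, H2-Eb1 at 7.74 and the B cell gene Cd79b at 7.35. Of 9 tested markers of cytotoxic and innate-like T cells and NK cells 1 was higher (11.1%) and 1 lower (11.1%). Prf1 was higher (0.43 ± 0.12) and Klrd1 lower (-0.66 ± 0.20), and each lost its call without any of 5 arrays and with quantile normalization.

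The background difference was also computed within each reporter allele, where 2 NOD and 2 B6 arrays were set against each other. In fusion Tconv 368 genes were called (3.09%), 227 higher (1.9%) and 141 lower (1.18%) in NOD, and in ires Tconv 361 (3.03%), 213 higher (1.79%) and 148 lower (1.24%), and 210 genes were called in both with the same direction. The fusion count ran between 111, without NOD fusion 2, and 431, and was 144 and 188 without B6 fusion 1 and 2 and 178 without NOD fusion 1. The ires count ran between 149, without NOD ires 1, and 316. The test of the difference between the alleles called 1 gene, Ctse (0.00839%), by limma, with 203 genes at an unadjusted p under 0.05.

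Ctse (probe set 10349648), which encodes the aspartic protease cathepsin E, was at 9.08, 8.63, 9.06 and 8.93 on the NOD arrays and at 11.96, 11.89, 8.70 and 8.33 on the B6 arrays. The B6 fusion arrays stood far above the other 6. NOD minus B6 was -3.07 in fusion and 0.48 in ires, and their difference was -3.55 (adjusted p = 5.70e-05). On the Treg arrays, which are other samples of the same lines, Ctse was at 8.62, 8.44, 8.69 and 8.72 in NOD and at 11.49, 11.68, 8.58 and 8.19 in B6, so the B6 fusion arrays were high there too. H2-Q4 differed by -0.12 in fusion and by -2.35 in ires, and H2-Q5 by -0.56 and -2.29, and the test of the difference did not pass for either (adjusted p = 0.487 for H2-Q5). In Treg H2-Q4 was at 11.44, 11.24, 8.16 and 10.04 in NOD and at 11.35, 11.54, 11.29 and 11.21 in B6, with the same order of arrays as in Tconv within NOD ires. Cd55 was at 8.0, 8.0, 7.84 and 7.73 in NOD Tconv and at 8.75, 8.86, 7.76 and 8.36 in B6 Tconv (-0.54 ± 0.13), high in B6 fusion, and lost its call without either fusion array of either background (adjusted p up to 0.0623).

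**Figure D4:**
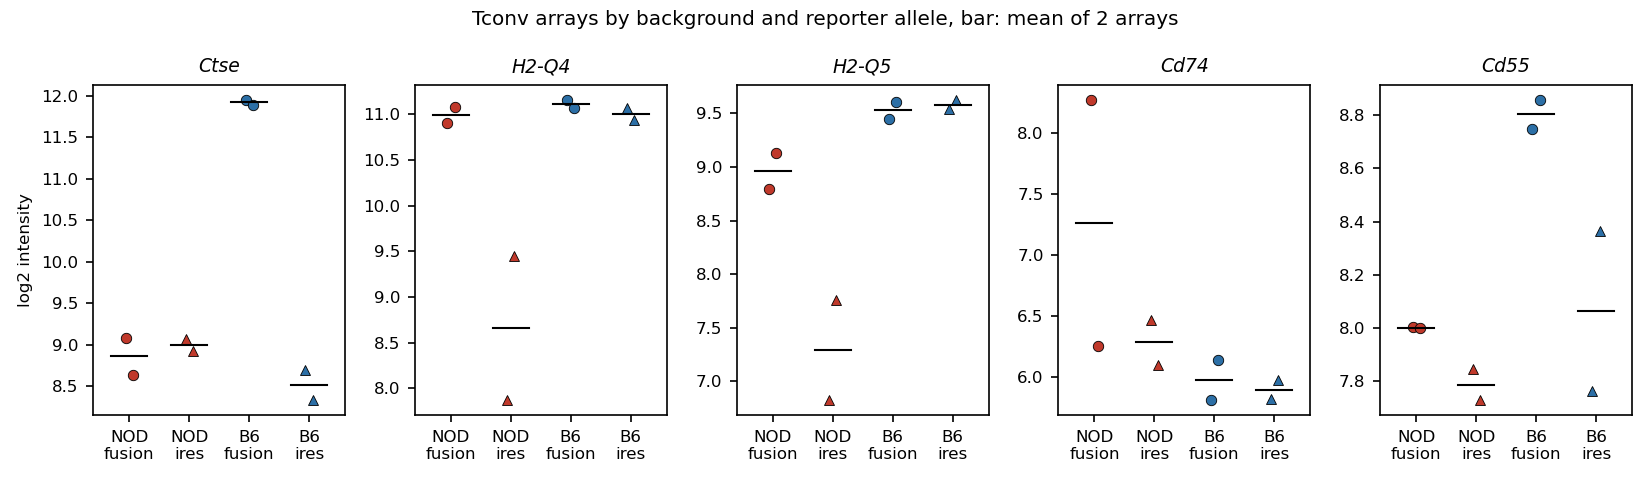
Log2 intensity (y axis, its own range in each panel) of 5 genes whose difference was unequal between the reporter alleles or rested on 1 array, with 2 arrays in each of the groups NOD fusion, NOD ires, B6 fusion and B6 ires and a bar at their mean. Ctse is high only in B6 fusion, at 11.96 and 11.89, H2-Q4 and H2-Q5 are low in NOD ires, and Cd74 is high on 1 NOD fusion array, at 8.27.

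Most genes called in Tconv had the same direction in Treg of the same lines. In Treg 2291 genes were called (19.2%), 1203 higher (10.1%) and 1088 lower (9.13%) in NOD. Of the 2162 genes called in Tconv 2049 had the same sign in Treg, where 77.8% of all genes had, and 965 were called in Treg in the same direction and 11 in the opposite one. Of the 80 genes that differed 2-fold or more in Tconv, 79 were called the same way in Treg. Over the 11923 genes, whose values depend on each other, the difference in Tconv and that in Treg had r = 0.753 and a Spearman rho of 0.715, as a description only. Zfp979 differed by 4.53 ± 0.15 in Treg and Trim12a by -4.72 ± 0.14. The labels do not say whether the Tconv and Treg arrays came from the same mice.

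The test of the difference itself, Tconv minus Treg, called 86 genes (0.721%), 59 higher (0.495%) and 27 lower (0.226%), of which 56 were also called in Tconv, and 1195 genes had an unadjusted p under 0.05. The count was 53 without B6 fusion 1 and 131 with quantile normalization, and with arrays of the same line and number as a block, chosen after seeing the data, it was 238, all 86 among them. St6galnac2 differed by 2.57 in Tconv and 1.08 in Treg (difference 1.49 ± 0.20, adjusted p = 0.00061), and Cnga1 by 1.83 and 0.54 (1.30 ± 0.17). In both the fitted background difference was larger in Tconv. Every Treg array of Cnga1 lay below the level set for testing, at 4.81 to 5.17 in NOD and 4.03 to 4.63 in B6. Signal there may be background, so the smaller Treg difference of Cnga1 is uncertain. Pdcd1 differed by 0.82 in Tconv and -0.18 in Treg, Tnfrsf18 by 0.73 and -0.21, Tnfrsf4 by 0.55 and -0.43, Id2 by 0.59 and -0.43 and Glrx by 0.80 and -0.54, each called for the difference. Of these, Pdcd1 and Tnfrsf18 were not called in Treg, and the others were lower there.

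Other genes had a larger background difference in Treg. Hopx, at 5.99 to 6.35 in NOD Tconv and 6.48 to 7.06 in B6 Tconv, was at 6.25 to 6.34 in NOD Treg and 8.29 to 8.78 in B6 Treg, and the difference of Tconv minus Treg was 1.66 ± 0.16 (adjusted p = 1.08e-05). Nsg2 differed by -0.48 in Tconv and -1.73 in Treg. Ehd3, a protein of endosomal recycling, was at 10.66, 10.66, 10.85 and 10.67 in NOD Tconv and at 9.42, 9.58, 9.54 and 9.64 in B6 Tconv (1.16 ± 0.08), and differed by 2.44 in Treg. Atrnl1 (0.38 in Tconv and 1.81 in Treg), the actin regulator Rflnb (0.33 and 1.55) and the potassium channel Kcnf1 (0.59 and 1.75) followed the same pattern. Lgmn, the lysosomal protease legumain, turned its sign, at 7.59 to 8.01 in NOD Tconv and 8.33 to 8.68 in B6 Tconv (-0.77 ± 0.11), against a difference of 0.40 in Treg (Tconv minus Treg -1.17 ± 0.16, adjusted p = 0.00061).

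**Figure D5:**
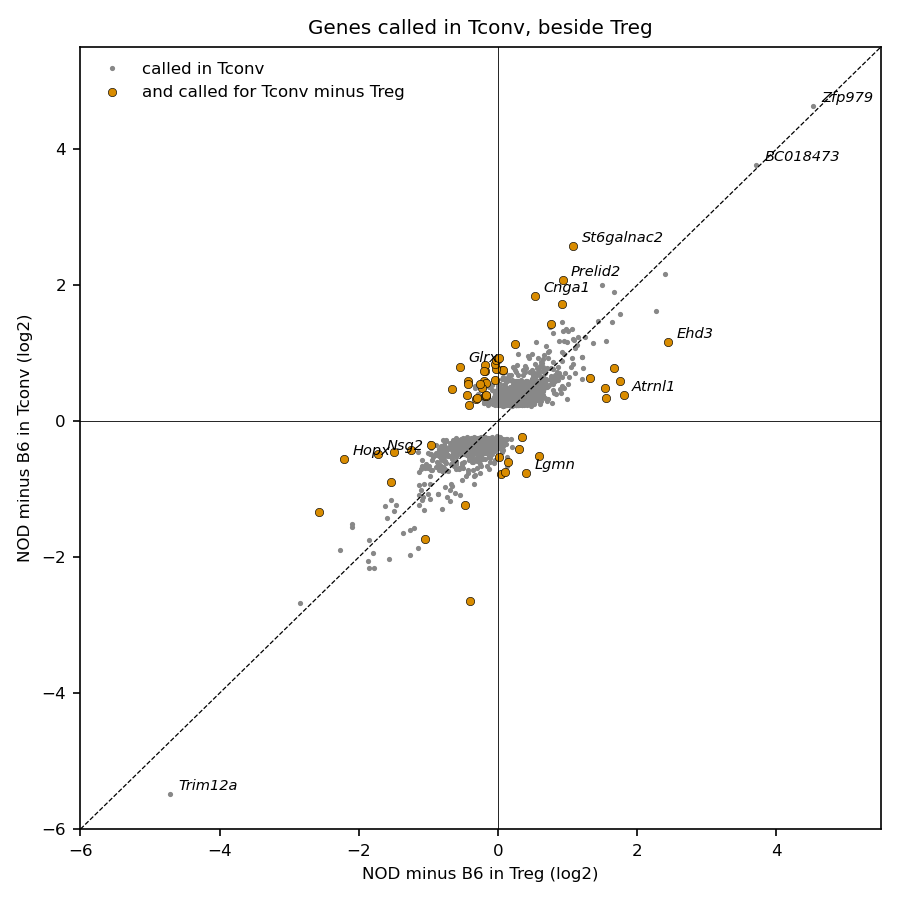
NOD minus B6 (log2) in Tconv (y axis) against that in Treg (x axis) for the 2162 genes called in Tconv, with the dashed line where both are equal and larger points for the 56 genes also called for Tconv minus Treg. Most points lie in the quadrants of equal sign, Zfp979, BC018473 and Trim12a near the line, and St6galnac2, Cnga1 and Glrx above it.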

How the data were processed

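RNA of 16 sorted T cell samples was measured on Affymetrix Mouse Gene 1.0 ST arrays. The deposited table holds linear intensities that the authors made with RMA in Affymetrix Power Tools, per the submitters' processing notes, and neither versions nor a genome build are stated in those notes. They were log2-transformed without a pseudocount. Of 25108 probe sets 21157 had 1 gene symbol, 1341 several and 2610 none; each gene was represented by its brightest probe set, by the mean of the 8 Tconv arrays. The test covered 11923 of 19531 genes, those that exceeded log2 6.04, the 40th percentile of the Tconv values, on 4 or more arrays.

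NOD minus B6 was fitted with limma 3.58.1 in R 4.3.3 on the 8 Tconv arrays with the reporter allele as a block, two-sided, with Benjamini-Hochberg adjustment over all genes tested, and every adjusted p in the text is from limma. The differences within and between alleles used 1 mean per group, that in Treg used the 8 Treg arrays, and Tconv minus Treg used all 16. Errors after differences are standard errors. The number of arrays limits the precision. Genes named were the 15 highest and 15 lowest called genes without overlap, up to 4 called genes per list, 8 fixed genes and the 5 largest each way of the contrasts between alleles and between cell types; the 92 called genes with anonymous symbols were counted and not named. Other named list members, neighbours on the chromosome and genes of Tconv minus Treg were chosen after their values were seen. The gene lists and the comparison were chosen with earlier results of these data known. Alternatives changed the filter, scaling, variance model, probe choice, design and arrays included, and a block of Tconv and Treg arrays with the same line and number was added after seeing the data. The fits were tested on simulated data. Promoter sequences came from RefSeq (GRCm38.p6), and gene order from its annotation. Figures used matplotlib 3.10.9.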

Additional observations from a re-analysis of the deposited data

Results flagged for a closer look

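In 7 of the 190 groups of 4 arrays examined, 1 array stood far from the other 3 by Dixon's criterion, which chance meets in about 1 group in 20. NOD fusion 2 was high for St6galnac2, at 9.85, and Nlrp1a, at 7.13. NOD ires 1 was high for Ehd3, at 10.85, and Cd44, at 8.57, and low for H2-T24, at 9.02. NOD fusion 1 was high for Cd74, at 8.27, and B6 fusion 1 was low for Aurkb, at 6.57.

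The background difference itself differed between Tconv and Treg (limma, all 16 arrays) for 19 of the 95 genes named by rule. As a signed value it was higher in Tconv for Cd74 (1.85), Hopx (1.66), St6galnac2 (1.49), Glrx (1.34), Cnga1 (1.30), Nsg2 (1.24), Prelid2 (1.14), Id2 (1.03), Pdcd1 (1.01), Tnfrsf18 (0.94), the integrin Itgam (0.83), Tlr6 (0.80) and Ccdc88a (0.66). It was lower for Atrnl1 (-1.43), Ehd3 (-1.28), Rflnb (-1.22), Lgmn (-1.17), Kcnf1 (-1.16) and H2-Ob (-0.69). The sign does not give the cell type with the larger difference. Hopx differed by -0.56 in Tconv and -2.21 in Treg, Nsg2 by -0.48 and -1.73, and H2-Ob by -1.74 and -1.05. Every Treg array of Cnga1 and every B6 Treg array of Ccdc88a lay below the level set for testing, so the sizes for these genes are uncertain. For Cd74 NOD minus B6 within Tconv was 0.35 without NOD fusion 1, against 0.84 with it. Between the alleles the background difference of Ctse differed by -3.55 (fusion minus ires).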

How the results depend on the processing

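The 2162 genes called in Tconv numbered between 1545 (no filter on dim genes) and 3052 (array weights) under the alternatives that kept all 8 arrays, all within 1.5 times, and between 919 and 2769 with 1 array left out. With 1 array left out the count ran between 111 and 431 in fusion and between 149 and 316 in ires. The count for fusion minus ires, 1 gene, became 2 without the filter and 4 with all 16 arrays in the fit, and ran between 1 and 6 with 1 array left out. For Tconv minus Treg, 86 genes, it was 131 after quantile normalization and ran between 53 and 120 with 1 array left out. Arrays share numbers across groups, and between the Tconv groups the deviations of same-numbered arrays had correlations of both signs. These ran from -0.374, for B6 ires and NOD ires, to 0.375, for B6 fusion and B6 ires. Tconv and Treg arrays of the same line and number had positive correlations in all 4 lines, between 0.0922 and 0.412, and the labels do not say whether they share mice. With the replicate number as a block 2081 genes were called in Tconv, 2664 in Treg and 123 for Tconv minus Treg. With the line and number as a replicate block, chosen after seeing the data, 238 were called for Tconv minus Treg, all 86 among them. For the 95 genes named by rule, 1842 single results kept their side of the threshold, 212 lost it, 13 gained it and 1 reversed, that of Ctla4, which was 0.038 without B6 ires 2 (adjusted p = 0.859) and lay between -0.38 and 0.038 with 1 array left out. The causes were not tested. Called under every alternative that tested them were 54 of the 95. Some of these, Zfp979 and Nlrp1a among them, were not tested under every alternative. The 2 arrays per group, the unequal spread of intensities between backgrounds and unexamined strain differences under the probes limit small differences and those of similar genes.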

Other observations

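Some called genes were neighbours on a chromosome. Of the 11918 tested genes placed in the order of the annotation 2161 were called (18.1%), and 77 runs of 3 or more called neighbours held 270 genes. Runs also arise where called genes are scattered, and their number was not set against chance. The runs described here were chosen after their values were seen. The run around BC018473 held Cygb (-0.34), Prcd (-0.33), Snhg16 (0.79), St6galnac2 (2.57), BC018473 (3.77) and St6galnac1 (1.46), in that order. The Ifi200 run held Aim2 (0.74), Ifi206 (-2.67), Ifi214 (-1.02), Ifi213 (-2.16), Ifi209 (-1.17), Ifi208 (-1.30) and Ifi203 (0.33). Both runs held higher and lower genes side by side.

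Acadl (-1.96) and Ikzf2 (0.61) stood in 1 run with Kansl1l (0.55) and Lancl1 (-0.36), and Pdk1 (-2.16) stood between Itga6 (0.44) and Cdca7 (0.52). Trim12a (-5.48) lay between its relatives Trim34a (-0.54) and Trim12c (-0.92), which were lower too. The runs of H2-DMa (-0.44), Psmb9 (-0.40) and Tap1 (-0.44) in the MHC and of the lymphocyte GTPases Gimap4 (-0.39), Gimap6 (-0.48) and Gimap7 (-0.46) were lower throughout, and that of Sidt1 (0.60), Spice1 (0.53), Nepro (0.34), Gtpbp8 (0.34) and the inhibitory receptor Cd200r1 (0.50) was higher throughout.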
